A study of Mus musculus with 6 samples.

Results

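The insulin-like growth factor (IGF) axis genes described here are Igf1, Igf1r and Igfbp2 to Igfbp7, 8 genes of the 21837 symbols in the table of RefSeq transcripts. They were chosen by symbol, and where a gene had several transcripts the one with the highest mean was used. RNA came from wildtype primary mouse embryonic fibroblasts (MEFs), cultures of connective tissue cells, of the strain C57BL/6x 129, taken from littermates at embryonic day 13.5 and passaged 4 times in medium with 10% serum. PolyA RNA was sequenced with strand information from untreated cells and after 1.5, 6 and 24 hr of TNFα at 20 ng/ml, with 1 library per time. H3K4me3, a histone mark of active promoters, was profiled in untreated MEFs with 1 ChIP library and 1 input library. With 1 library per time, no difference below has a replicate check and none was tested.

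IGF1 is a secreted growth factor that signals through the receptor tyrosine kinase IGF1R to the PI3K, AKT and MAPK pathways. IGF-binding proteins are secreted proteins that hold IGFs outside the cell, prolong their life and set how much reaches the receptor, and several also act without IGF. Proteases such as PAPP-A, which cuts IGFBP4, release the bound factor. Fibroblasts are a main source of IGF-binding proteins in connective tissue. TNFα, a proinflammatory cytokine, acts through NF-κB, which binds κB sites in DNA.

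The 250 bases before the start are shown for 4 of the genes, with capitals marking a match on either strand to the κB consensus, to TATAAA or to GGGCGG. Igfbp7 is shown because its RNA was higher at every time and its start lay in an H3K4me3 peak, Igfbp4 and Igfbp6 because their RNA was lower at 6 and 24 hr, and Igfbp5 because it was the most abundant before treatment and is the one with a κB match. The sequences are from mm9, 5′ to 3′ along the gene, and lie at chr5:77837071-77837320 (minus strand) for Igfbp7, chr11:98902308-98902557 (plus) for Igfbp4, chr15:101974543-101974792 (plus) for Igfbp6 and chr1:72921459-72921708 (minus) for Igfbp5.
Igfbp7: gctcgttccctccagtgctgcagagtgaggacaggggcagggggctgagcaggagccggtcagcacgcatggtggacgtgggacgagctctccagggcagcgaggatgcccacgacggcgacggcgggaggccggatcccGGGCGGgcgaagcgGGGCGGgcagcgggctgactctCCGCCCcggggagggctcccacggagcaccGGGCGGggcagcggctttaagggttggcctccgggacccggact
Igfbp4: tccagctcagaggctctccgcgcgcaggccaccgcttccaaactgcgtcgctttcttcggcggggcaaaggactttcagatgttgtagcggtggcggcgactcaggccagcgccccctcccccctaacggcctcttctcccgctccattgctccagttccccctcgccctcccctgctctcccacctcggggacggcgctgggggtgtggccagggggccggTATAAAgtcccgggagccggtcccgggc
Igfbp6: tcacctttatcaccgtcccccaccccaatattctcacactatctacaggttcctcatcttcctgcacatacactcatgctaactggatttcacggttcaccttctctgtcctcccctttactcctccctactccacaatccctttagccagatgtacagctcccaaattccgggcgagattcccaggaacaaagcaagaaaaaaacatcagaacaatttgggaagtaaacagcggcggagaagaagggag
Igfbp5: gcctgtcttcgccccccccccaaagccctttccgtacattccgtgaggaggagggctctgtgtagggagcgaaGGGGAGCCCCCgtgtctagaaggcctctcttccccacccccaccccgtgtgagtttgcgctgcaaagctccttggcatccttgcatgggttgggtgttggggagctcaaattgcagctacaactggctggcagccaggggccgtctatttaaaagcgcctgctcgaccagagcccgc

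The window of Igfbp7 holds 4 matches to GGGCGG, a motif of the Sp1 family, at 110, 96, 74 and 44 bases before the start, and no TATAAA. That of Igfbp4 holds TATAAA 28 bases before the start and no GGGCGG. That of Igfbp6 holds none of these 3 motifs. The windows differ in base composition, with 74.0% G and C and 26 CpG in Igfbp7, 69.2% and 22 in Igfbp4, 62.0% and 11 in Igfbp5 and 48.0% and 6 in Igfbp6, beside medians of 55.2% and 10 over 19528 coding promoters. Among those promoters, 42.7% hold GGGCGG, 11.9% hold TATAAA and 7.87% hold the κB consensus. Of all 8 genes, 3 hold GGGCGG (Igf1r, Igfbp2 and Igfbp7), 2 hold TATAAA (Igf1 and Igfbp4) and 1 holds the κB consensus (Igfbp5, in overlapping matches 177 and 176 bases before the start). In 1000 bases the κB consensus is also matched in Igf1, at 873 bases before the start, and 20.2% of coding promoters hold it in that length. Neither promoter length of Igfbp7 holds a κB match. A match describes letters, and its absence says only that they are not in the window.

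The libraries differed as wholes, which every ratio below carries. RPKM, reads per kilobase of transcript scaled to the reads of a library, is per length, so levels can be compared between genes, but the deposited values have a scale of their own. The summed RPKM of the table in the 1.5, 6 and 24 hr libraries was 1.19, 0.563 and 0.964 times that of the untreated one. The median log2 ratio to untreated over the 7876 coding transcripts with a mean above 100 was 0.42, -0.73 and 0.08 at 1.5, 6 and 24 hr. Each log2 ratio is therefore given as deposited and relative to that median, and "2-fold" is used of both. Each library has 2 columns, R1 and R2, whose meaning is not stated, and the error after ± is the larger distance of the ratio of either column alone from that of their mean. It is not a replicate error, and the depth behind each value is unknown. A list of 7 TNF response genes (Nfkbia, Tnfaip3, Icam1, Cxcl1, Ccl2, Relb and Sod2) was written with earlier results of these data known. All 7 were at least 2-fold higher in all 3 treated libraries, with log2 ratios from 1.18 to 6.60. Of 10 fibroblast markers, 9 had a mean above 100. The 5 endothelial and 3 hepatocyte markers did not exceed an RPKM of 3.88 and 0.562, and of 5 epithelial, 3 muscle and 3 adipocyte markers only Des and Fabp4 had a mean above 100. Of 7 macrophage and leukocyte markers, 4 had a mean above 100, and their sum over the list was 3300 in untreated cells and 16462, 3205 and 8106 after 1.5, 6 and 24 hr, most of it Lyz2.

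All 8 genes had a mean above 100. Before treatment the order of RPKM was Igfbp5, Igfbp4, Igfbp7, Igfbp6, Igf1r, Igfbp2, Igfbp3 and Igf1, from 2234 to 133, and only Igfbp2 and Igfbp3 had R1 and R2 ranges that overlapped. Igfbp5 was then at rank 418 and Igf1 at rank 4897 of 20204 coding genes. In all 3 treated libraries Igfbp7 was the highest of the 8, Igfbp5 the second, Igfbp4 the third and Igf1 the lowest.

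**Figure D1:**
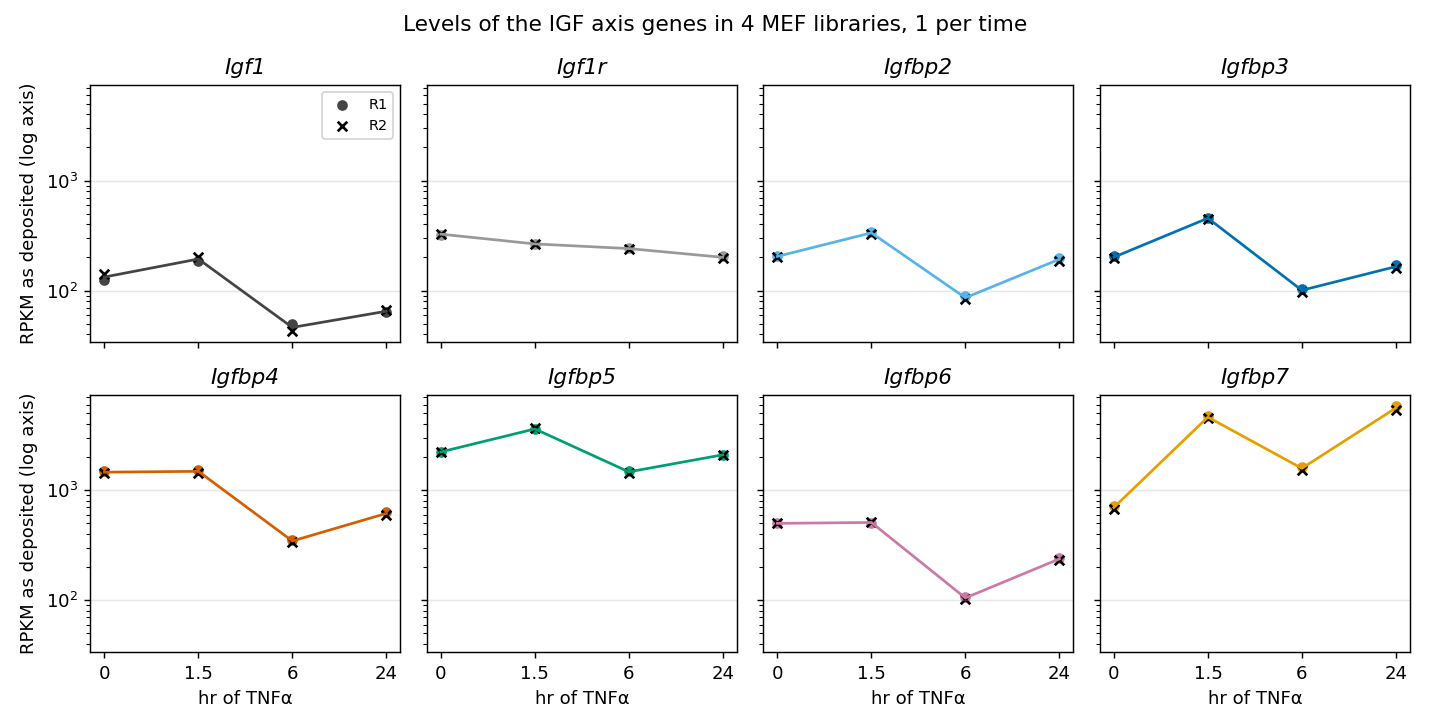
RPKM as deposited (log axis) of each gene against hr of TNFα, with 1 library per time. Circles are R1, crosses R2 and lines join their means. Igfbp7 was at 699 in the untreated and 4630 in the 1.5 hr library, whereas Igfbp4 and Igfbp6 stayed near their untreated levels at 1.5 hr and were lowest at 6 hr.

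Igfbp7, also called IGFBP-rP1, binds IGFs weakly and is known as a secreted matrix protein. Its RPKM was 699 before TNFα, 4630 at 1.5 hr, 1585 by 6 hr and 5603 by 24 hr. All 3 treated libraries lay above the untreated one, and their R1 and R2 ranges did not overlap with its range. It was thus higher than untreated by 6.62-fold, 2.27-fold and 8.02-fold at the 3 times. On the log2 scale it was 2.73 ± 0.0069, 1.18 ± 0.0013 and 3.003 ± 0.0056 as deposited, and 2.31, 1.91 and 2.92 relative to the median transcript. Of the 7876 transcripts, 68 had a larger ratio at 1.5 hr, 119 at 6 hr and 28 at 24 hr. Igfbp7 went from rank 1294 of coding genes untreated to rank 243, 355 and 181. The drop between 1.5 and 6 hr, -1.55 on the log2 scale, lay near the -1.30 of the median transcript, and the rise from 6 to 24 hr, 1.82, lay above its 0.94. The other listed transcript, NM_001159518, had log2 ratios of 2.73, 1.18 and 3.001 beside NM_008048, as the rows of 1 gene may share reads.

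Of the macrophage and leukocyte markers, Lyz2 and Cd14 were higher in the same libraries as Igfbp7, and all the others were below untreated at 6 hr as deposited. Relative to the median transcript, whose log2 ratio at 6 hr was -0.73, Ptprc was above untreated at every time. Cd68, Csf1r, Emr1 and Itgam stayed below untreated at 6 hr on that scale. The levels that follow are as deposited. Lyz2, a lysozyme of myeloid cells, was at 2257 untreated and 14668, 2692 and 7187 in the 1.5, 6 and 24 hr libraries, and Cd14, a receptor for bacterial lipopolysaccharide, at 62.6, 515, 178 and 387. Ptprc, which encodes the leukocyte antigen CD45, was at 13.4 untreated and 30.8, 8.63 and 16.6 after treatment. Csf1r, the receptor for macrophage colony-stimulating factor, went from 295 untreated to 287, 90.1 and 124, below untreated at every time. In the same order Cd68 was at 605, 823, 202 and 312, Emr1 at 26.3, 74.0, 13.7 and 27.3, and Itgam at 41.1, 64.4, 20.2 and 52.4. The summed level of the 6 markers other than Lyz2 was 1043 untreated, 1794 at 1.5 hr, then 513 at 6 hr and finally 919 at 24 hr. The fibroblast list summed to 95952, 99659, 45147 and 60817. The part of these cells in the ratios of Igfbp7 was not tested. In such bulk RNA, more cells of a type and more RNA per cell cannot be told apart.

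Igfbp4 binds IGFs and is mostly known to inhibit their action until PAPP-A cuts it. Its RPKM was 1462 in untreated cells and 1488, 346 and 616 after 1.5, 6 and 24 hr. Untreated and 1.5 hr values overlapped between R1 and R2, and those at 6 and 24 hr were lower, 4.23-fold and 2.37-fold. The log2 ratios were 0.02 ± 0.02, -2.08 ± 0.01 and -1.25 ± 0.02 as deposited, and -0.40, -1.35 and -1.33 relative to the median transcript. At 6 hr 0.698% of coding transcripts had a lower ratio, and at 24 hr 8.33%.

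Igfbp6 prefers IGF2 over IGF1. Its RPKM was 501 before TNFα, 510 at 1.5 hr, 105 by 6 hr and 238 by 24 hr, which is 4.76-fold and 2.11-fold lower than untreated at the last 2 times. The log2 ratios were 0.03 ± 0.01, -2.25 ± 0.04 and -1.07 ± 0.03 as deposited, and -0.40, -1.52 and -1.16 relative to the median transcript. At 6 hr 0.267% of coding transcripts had a lower ratio. The level of Igfbp6 was a near constant fraction of that of Igfbp4 within a library, 0.342 untreated and 0.343, 0.304 and 0.386 in the 1.5, 6 and 24 hr libraries, while the ratio of Igfbp7 to Igfbp4 went from 0.478 to 3.11, 4.58 and 9.09. Both genes are rich in G and C (58.7% in Igfbp4 and 60.7% in Igfbp6), and after centring on transcripts of like GC content their log2 ratios at 24 hr were -0.63 and -0.42, short of 2-fold, with those at 6 hr at -1.11 and -1.45.

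Igf1, the ligand, was at 133 untreated, 193 at 1.5 hr, then 46.2 at 6 hr and finally 64.8 at 24 hr. It was higher at 1.5 hr and lower at both later times than untreated, by 2.87-fold at 6 hr and 2.05-fold at 24 hr. The log2 ratios were 0.54 ± 0.02, -1.52 ± 0.18 and -1.03 ± 0.06 as deposited, and 0.12, -0.79 and -1.12 relative to the median transcript, so that the ratio at 6 hr was within 2-fold on the second scale. The 24 hr ratio lay near the 2-fold limit, past it in R2 (-1.09) and short of it in R1 (-0.98), and it was also short of it when scaled to the library sum (-0.98). The 4 other transcripts of Igf1 were listed at 79.1 to 81.1 untreated. Their log2 ratios were from 0.19 to 0.35 at 1.5 hr, from -1.67 to -1.56 at 6 hr and from -1.23 to -1.06 at 24 hr. At 1.5 hr they lay below the 0.42 of the median transcript, unlike the transcript used. Igf1 has the lowest GC content of the 8 (38.1%), and against transcripts of like GC content its log2 ratios were -0.88, -1.44 and -2.01.

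Igf1r, the receptor, differed from untreated by less than 2-fold at every time. Its RPKM was 325 in untreated cells and 265, 241 and 200.3 after 1.5, 6 and 24 hr, each library below the one before, with log2 ratios of -0.30 ± 0.02, -0.44 ± 0.03 and -0.70 ± 0.05. Relative to the median transcript these were -0.72, 0.30 and -0.78, so the 6 hr ratio has the opposite sign on that scale.

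Igfbp3, the main carrier of IGFs in blood, was at 201 before TNFα, 454 at 1.5 hr, 100.5 by 6 hr and 165 by 24 hr. It was highest at 1.5 hr, 2.26-fold above untreated, and lowest at 6 hr, with log2 ratios of 1.18 ± 0.02, -1.001 ± 0.02 and -0.29 ± 0.01. Relative to the median transcript the ratios were 0.75, -0.27 and -0.37, all within 2-fold. The 6 hr ratio lay at the 2-fold limit, past it in R2 (-1.02) and short of it in R1 (-0.98).

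Igfbp2 was at 204 untreated and 334, 85.9 and 192 in the 1.5, 6 and 24 hr libraries, with log2 ratios of 0.71 ± 0.01, -1.25 ± 0.03 and -0.09 ± 0.03. Relative to the median transcript these were 0.29, -0.52 and -0.17, within 2-fold at every time. With 62.1% GC, it had log2 ratios of 1.49, -0.43 and 0.91 against transcripts of like GC content.

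Igfbp5, which binds to matrix and is abundant in connective tissue, was at 2234 untreated, 3614 at 1.5 hr, then 1471 at 6 hr and finally 2103 at 24 hr. Its log2 ratios were 0.69 ± 0.01, -0.60 ± 0.03 and -0.09 ± 0.01, and relative to the median transcript 0.27, 0.13 and -0.17. It stayed between rank 318 and rank 424 of coding genes in all 4 libraries. Igfbp2 and Igfbp5 lie end to end on chromosome 1, at chr1:72871077-72899048 and chr1:72904506-72921458, with 5457 bases between them.

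As deposited, 2 of the 8 genes were at least 2-fold higher at 1.5 hr (Igfbp3 and Igfbp7), beside 29.2% of coding transcripts, and 1 at 6 hr and 1 at 24 hr (Igfbp7), beside 1.85% and 16.5%. None was 2-fold lower at 1.5 hr, beside 8.35%, whereas 5 were at 6 hr, beside 30.4%, and 3 at 24 hr (Igf1, Igfbp4 and Igfbp6), beside 13.4%. The 5 at 6 hr were Igf1, Igfbp2, Igfbp3, Igfbp4 and Igfbp6. Relative to the median transcript, Igfbp7 alone was 2-fold higher at each time, beside 15.9%, 6.87% and 14.5% of transcripts. On that scale 0, 2 and 3 genes were 2-fold lower at 1.5, 6 and 24 hr, beside 17.5%, 3.07% and 15.5%, and they were Igfbp4 and Igfbp6 at 6 hr, joined by Igf1 at 24 hr. The median log2 ratio of the 8 genes was 0.62, -1.12 and -0.49 as deposited, beside 0.42, -0.73 and 0.08 over all coding transcripts. Relative to those it was 0.20, -0.39 and -0.58. With 8 genes, each gene is 12.5% of the count.

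**Figure D2:**
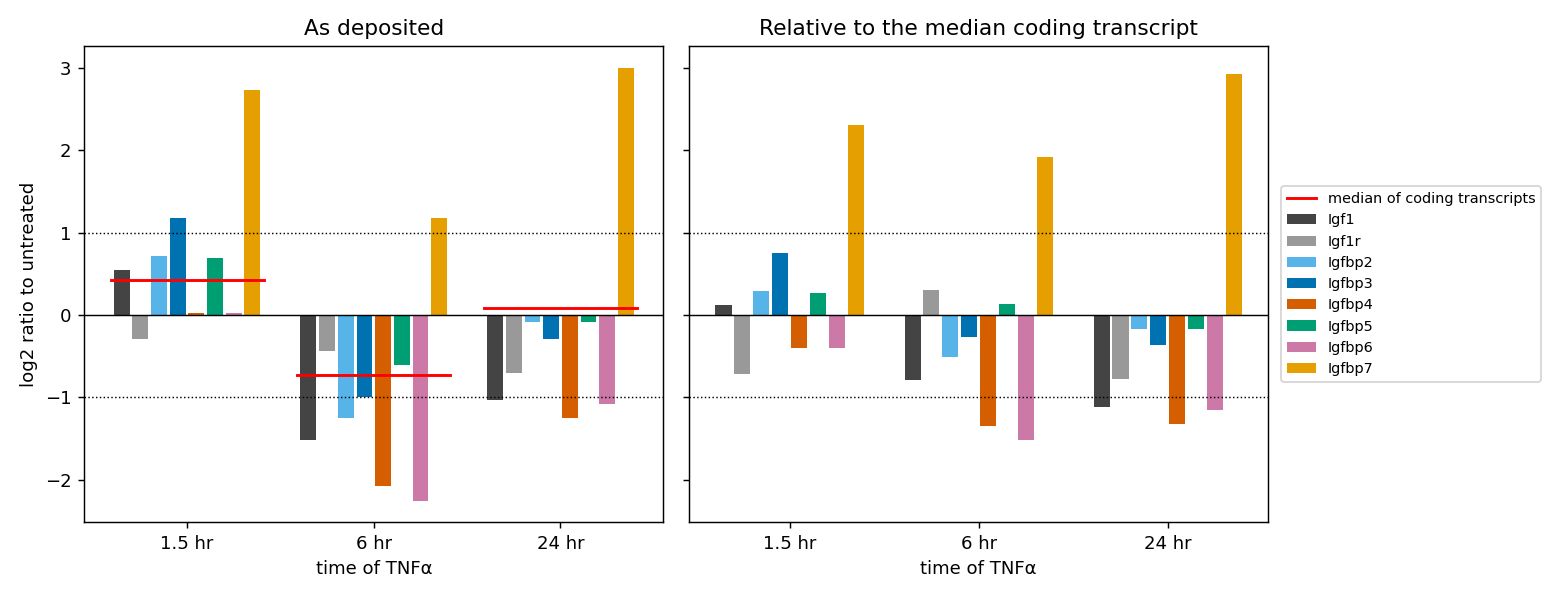
Log2 ratio to untreated of each gene at 1.5, 6 and 24 hr, as deposited (left, with the median of 7876 coding transcripts as red lines) and relative to that median (right). Dotted lines mark 2-fold. Igfbp7 lies above 2-fold in all 6 groups of bars, and Igfbp4 and Igfbp6 lie below 2-fold at 6 and 24 hr in both panels.

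The make-up of the Igfbp transcripts is not moved by the level of a whole library. A shift that differs with GC content can move it, and the shares were not centred on GC content. Of the summed RPKM of Igfbp2 to Igfbp7, Igfbp5 made up 42.1% in untreated cells and 32.8%, 39.8% and 23.6% after 1.5, 6 and 24 hr. Igfbp7 made up 13.2%, 42.0%, 42.9% and 62.8%. Igfbp4 made up 27.6%, 13.5%, 9.37% and 6.91%, and Igfbp6 9.44%, 4.62%, 2.84% and 2.67%. Igfbp2 and Igfbp3 each stayed under 5% of the sum, from 3.85% to 2.16% and from 3.79% to 1.85%. The shares from R1 and R2 differed by at most 1.44 percentage points in any library, less than the difference of Igfbp7 or Igfbp4 between untreated and any treated library. Both columns belong to the same library, so this spread does not measure how far repeat libraries would differ. By these shares Igfbp7 went from the third to the first place, and Igfbp4 from the second to the third.

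The summed Igfbp RPKM was 5300 before TNFα, 11030 at 1.5 hr, 3693 by 6 hr and 8917 by 24 hr. Its log2 ratio relative to the median transcript was 0.63, 0.21 and 0.67, and without Igfbp7 it was 0.05, -0.39 and -0.56. Per RPKM of Igf1 the sum was 39.98 untreated and 57.0, 80.0 and 138 in the 1.5, 6 and 24 hr libraries. Igf2, the second ligand, was far more abundant than Igf1, at 2833, 6980, 1551 and 4296, or 21.4, 36.1, 33.6 and 66.3 times the level of Igf1. Per RPKM of Igf2 the Igfbp sum was 1.87, 1.58, 2.38 and 2.08. These sums and ratios were not centred on GC content either.

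**Figure D3:**
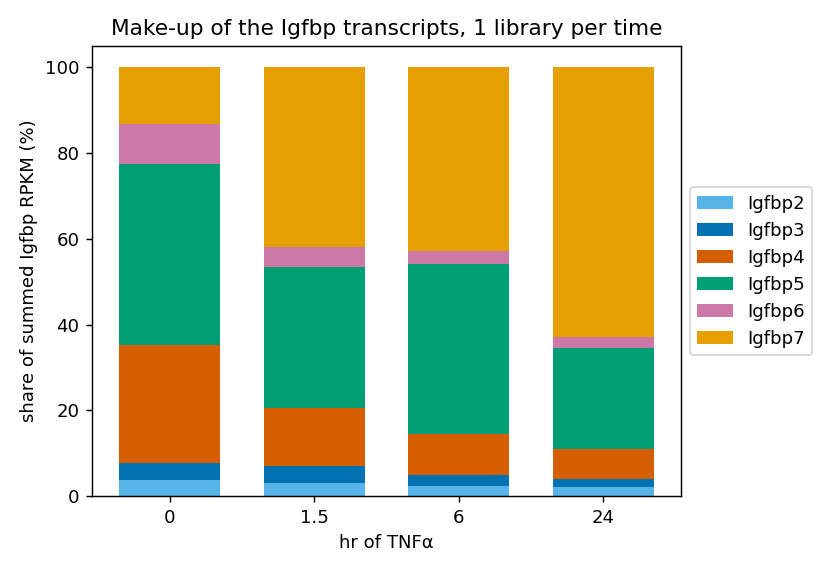
Share in percent of each gene in the summed RPKM of Igfbp2 to Igfbp7, against hr of TNFα, 1 library per bar. Igfbp7 makes up 13.2% of the untreated bar and 62.8% of the 24 hr bar, and Igfbp4 27.6% and 6.91%.

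The other genes of the IGF pathway were taken from a list of 46, all in the table, of which 23 had a mean above 100 and 2 (Igfbp1 and Plg) were listed at 0 in all libraries. As deposited, 7, 0 and 4 of the 23 were at least 2-fold higher at 1.5, 6 and 24 hr, beside 29.2%, 1.85% and 16.5% of all coding transcripts, and 1, 7 and 4 were 2-fold lower, beside 8.35%, 30.4% and 13.4%. The list's shares, 30.4%, 0% and 17.4% higher and 4.35%, 30.4% and 17.4% lower, lay near those. Relative to the median transcript 3, 3 and 4 were higher, beside 15.9%, 6.87% and 14.5% of transcripts, and 3, 2 and 4 lower, beside 17.5%, 3.07% and 15.5%, so that most lay within 2-fold at each time, with list medians of 0.24, -0.11 and 0.24.

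Irs1, the docking protein that the activated receptor phosphorylates, was at 196 untreated, 84.8 at 1.5 hr, then 53.0 at 6 hr and finally 83.1 at 24 hr, with relative log2 ratios of -1.63, -1.15 and -1.32. It was below untreated in all treated libraries. Akt1, a kinase downstream of PI3K, was at 770, 2792, 671 and 1986, with relative log2 ratios of 1.43, 0.53 and 1.28. The adaptors Grb10 and Grb14, which bind the receptor and restrain its signal, had relative log2 ratios of 1.15, -0.09 and 0.30, and of 0.95, 1.04 and 1.88. Mmp2, a matrix protease, had -1.03, -0.998 and -1.25.

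The remaining named genes belong to the CCN family, matrix proteins with an IGFBP-like domain. Ctgf was at 778 in untreated cells and 2473, 1493 and 2959 after 1.5, 6 and 24 hr, with relative log2 ratios of 1.25, 1.67 and 1.85. Cyr61 had 0.90, 1.03 and 1.35. Wisp2 was at 1244, 763, 308 and 242, with -1.13, -1.28 and -2.44, and Nov at 282, 268, 94.3 and 46.4, with -0.50, -0.85 and -2.69. Ctgf and Cyr61 were above untreated and Wisp2 and Nov below it at all times on the relative scale. The protease gene Pappa, whose product cuts IGFBP4, had relative log2 ratios of 0.51, -0.25 and -0.11, and its inhibitor gene Stc2 had a mean of 61.4, under the minimum.

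**Figure D4:**
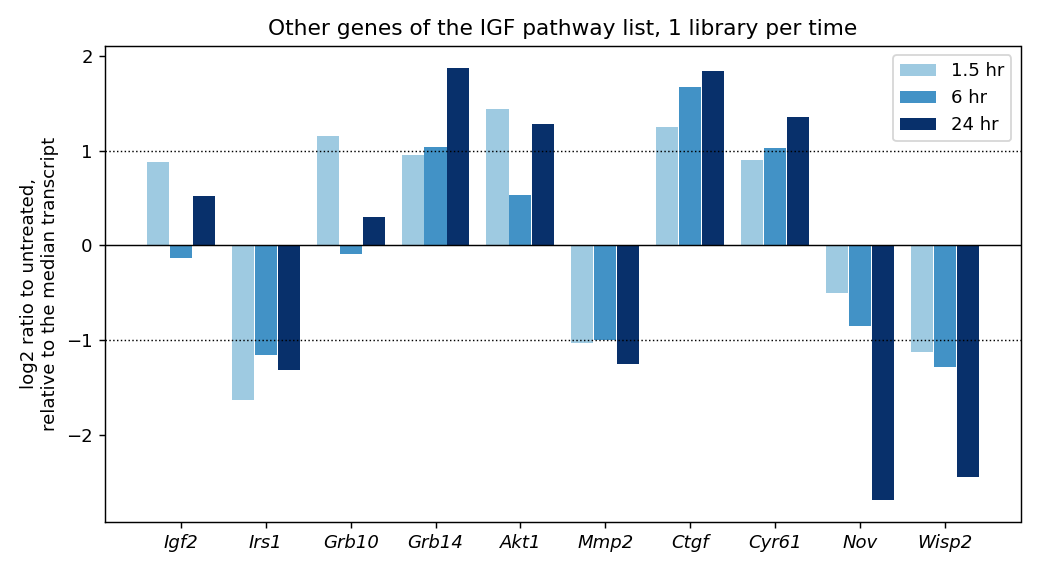
Log2 ratio to untreated, relative to the median coding transcript, of Igf2 and the 9 other pathway genes past 2-fold in both R1 and R2 at 1 or more times, at 1.5, 6 and 24 hr with 1 library each. Dotted lines mark 2-fold. Irs1 and Wisp2 lie below -1 at all times, and Ctgf lies above 1 at all times.

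The genes whose 3 log2 ratios were most like those of a member were sought among 6021 other coding genes with a mean above 100. Likeness was the root mean square (RMS) difference of these 3 ratios, taken from the 4 libraries. A scaling by the same factor for all genes of a library does not move it. Centring on GC content, which shifts genes by different amounts, can move it and was not applied to it. Igfbp4 and Igfbp6 were each the nearest gene to the other, with an RMS difference of 0.14. The next nearest were Cdh3 (0.18) to Igfbp4 and Pld3 (0.20) to Igfbp6. Igfbp7 was nearest to Srgn (0.22), which encodes the granule proteoglycan serglycin, and to Sod2 (0.22), the mitochondrial superoxide dismutase and 1 of the TNF response genes. Sod2 was at 51.1, 365, 116 and 318 and Srgn at 25.9, 190, 68.0 and 172. Igf1 was nearest to Cd68 (0.08), a lysosomal protein of macrophages, at 605, 823, 202 and 312, and to Thbs2 (0.16), a matrix protein.

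Igf1r was nearest to Rnf40 and Mafg (both 0.05), Igfbp2 to Sdc1 (0.05) and Egfr (0.06), Igfbp3 to Itm2a (0.09) and Lrrc17 (0.13), and Igfbp5 to Cbfb (0.05) and Nup188 (0.06). Members with ratios near those of the median transcript have many such neighbours. Between Igfbp2 and Igfbp3, the next pair within the family, the difference was 0.32, and 657 genes were closer to Igfbp2 than Igfbp3 was.

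H3K4me3 peaks in untreated MEFs separated the genes in another way. Of the 8 genes, 3 had a peak within 1 kb of an annotated start (Igf1, Igf1r and Igfbp7), beside 92.5% of 5860 coding genes with a mean above 100. Igfbp2, Igfbp3, Igfbp4, Igfbp5 and Igfbp6 had none. Of 3681 coding genes at or above the untreated level of Igfbp3 (201), 92.3% had a peak and 283 had none. The nearest listed peak lay 6496 bases from a start of Igfbp6, 16273 from Igfbp4, 109843 from Igfbp2, 159615 from Igfbp5 and 586362 from Igfbp3. The counts of genes with a peak were the same, 3, with 0 kb and 5 kb.

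The start of Igf1r (chr7:75097713-75371484, plus strand) lay in a peak of 7906 bases with 3922 tags and a fold enrichment of 89.0, rank 60 of 11157 peaks by tags. The peak at Igfbp7 (chr5:77778265-77837070, minus strand) was 4152 bases long, from 830 bases before to 3321 bases after the start, with 959 tags and a fold enrichment of 38.6, beside medians of 1049 and 45.5 over all peaks. It thus covered the Igfbp7 window printed above in full. That at Igf1 (chr10:87321010-87399792, plus strand) had 3698 bases, 720 tags and a fold enrichment of 51.3. The peak list holds no fold enrichment under 20, so a weaker enrichment at Igfbp2 to Igfbp6 would not be listed. Of coding genes with a mean above 100 within 1 Mb, 8 of 8 near Igfbp3, 13 of 14 near Igfbp4 and 21 of 24 near Igfbp6 had a peak. Near Igfbp2 it was 1 of 2, and near Igfbp5 also 1 of 2. Igfbp2 and Igfbp5 count among each other's neighbours, and in both cases the neighbour without a peak is the other of this pair. The untreated RPKM of the 5 genes without a peak went from 201 to 2234 and that of the 3 with one from 133 to 699, so that listed peaks did not follow RNA level among these genes. No H3K4me3 data of treated cells were analysed here.

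**Figure D5:**
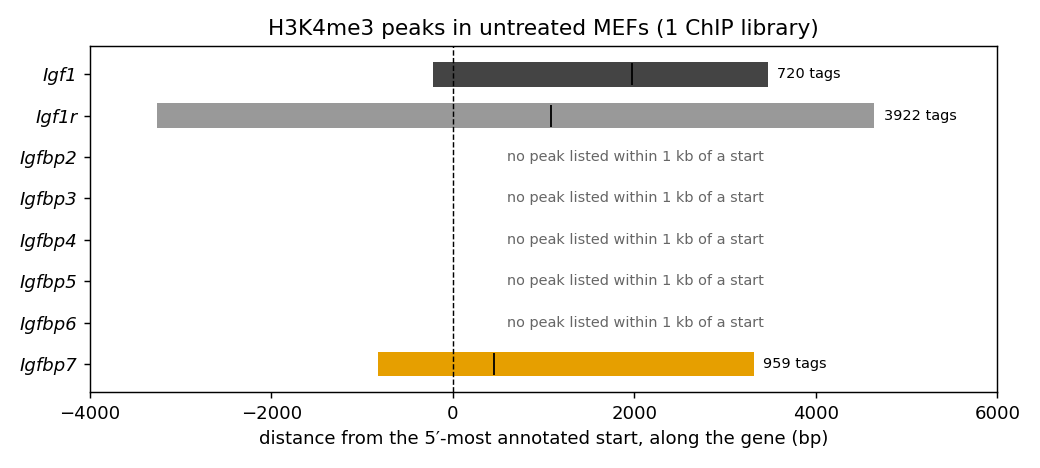
Extent of H3K4me3 peaks (bars) and their summits (black ticks) in untreated MEFs, against the distance in bp from the most upstream annotated start, along each gene. Numbers beside the bars are tags in the peak. Igf1, Igf1r and Igfbp7 have a peak that covers the start, and the other 5 genes have none listed within 1 kb.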

How the data were processed

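RNA-seq was made from MEFs before and at 1.5, 6 and 24 hr of TNFα, with 1 library per time. Reads were aligned to mm9 by the authors with TopHat, and a script of their own gave the deposited RPKM of each RefSeq transcript, on a scale of its own, as columns R1 and R2 of each library. What R1 and R2 are is not given in the sources used here, so their mean was the value of a library and their difference only a spread. The extract field of the 24 hr library describes a ChIP, but its other labels (title, treatment, library source) describe RNA, and it was used as RNA. The columns were matched to times through the names in the study's list of mapped reads. Read counts per gene, and so the depth behind each value, are unknown.

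For H3K4me3, the authors aligned 1 ChIP library and 1 input library with Bowtie, and MACS called the peaks. Each deposited peak has the count of its tags, its fold enrichment, an FDR (in percent) and a score that rises as the p-value falls. The score was not used.

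All rows whose symbol is a member were taken, and the row with the highest mean was used. The log2 ratio to untreated had no pseudocount. Transcripts counted as background were coding and had a mean of the 4 libraries above 100. The relative ratio subtracts the median of these at each time. Other scalings (sum, trimmed mean with 30% of ratios and 5% of levels cut at each end, medians in 20 bins of GC content), pseudocounts of 10 and 100, single columns and the mean of all rows of a gene were tried. Peaks were assigned to a gene within 1 kb of an annotated start in GENCODE vM1 (mm9), from which the promoter windows were also read. The sum, median and trimmed mean scalings were run on simulated data in which a small part of the transcripts changed, up or down at equal odds. This does not cover libraries in which many transcripts change mostly in the same direction. The GC bins were not checked in this way. Python 3.11.15, numpy 2.4.6 and pandas 2.3.3 were used. Of the pathway list, genes past 2-fold in both columns after subtracting the median were named, and Igf2. The genes and lists were chosen with earlier results of these data known.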

Additional observations from a re-analysis of the deposited data

Results flagged for a closer look

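Of the 8 genes, 6 had a log2 ratio above 0 at 1.5 hr and below 0 at 6 hr, beyond the distance of either column from the mean, as deposited. The ratio at 6 hr minus that at 1.5 hr was -2.07 for Igf1, -1.96 for Igfbp2, -2.18 for Igfbp3, -2.10 for Igfbp4, -1.30 for Igfbp5 and -2.28 for Igfbp6. Over all coding transcripts with a mean above 100 the median of this difference was -1.30, equal to that of Igfbp5 to 2 decimals. The median ratio of those transcripts was itself above 0 at 1.5 hr (0.42) and below 0 at 6 hr (-0.73). Their share with this change of sign was not counted, so the 6 of 8 has no background beside it. Igfbp4 and Igfbp6 lay close to 0 at 1.5 hr, at 0.02 and 0.03. With 1 library per time the differences were not tested. Relative to the median transcript, Igf1, Igfbp2 and Igfbp3 kept opposite signs at these times, Igfbp4 and Igfbp6 were below 0 at both, and Igfbp5 was above 0 at both. For Igf1 this held only for the transcript used. Its other transcripts, at 0.19 to 0.35 as deposited, lay below the median transcript at 1.5 hr too. Against transcripts of like GC content, 4 of the 6 genes had 1.5 hr ratios of the opposite sign to those relative to the median transcript. These were -0.88 for Igf1, 0.35 for Igfbp4, 0.45 for Igfbp6 and -0.08 for Igfbp5. Beside the ratios as deposited, Igf1 and Igfbp5 turned sign and Igfbp4 and Igfbp6 did not.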

How the results depend on the processing

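All differences rest on 1 library per time, with no depth per value. No paired analysis was possible because each group holds 1 library. Igfbp7 stayed at least 2-fold higher at all 3 times, and Igfbp4 and Igfbp6 at least 2-fold lower at 6 hr, under all 9 alternatives that recompute a ratio. Genes 2-fold higher at 1.5 hr, 2 as deposited, were 1 with each of the sum, median and trimmed mean scalings, a pseudocount of 100 and a 3-fold limit, and 4 with a 1.5-fold limit. At 6 hr a 3-fold limit left 0 of 1. Genes 2-fold lower at 6 hr, 5 as deposited, were 2 with those 3 scalings, a pseudocount of 100 or a 3-fold limit, 3 with GC bins, and 4 with R1 alone or a pseudocount of 10. At 24 hr 3 became 2 with the sum scaling, a pseudocount of 10 or R1 alone, each without Igf1, 1 with GC bins or a pseudocount of 100, 0 with 3-fold and 4 with 1.5-fold. The median log2 ratio at 1.5 hr, 0.62, became 0.37 (sum), 0.20 (median), 0.20 (trimmed mean), 0.40 (GC bins), 0.60 and 0.42 (pseudocounts of 10 and 100) and 0.53 (all rows of a gene). At 6 hr -1.12 became -0.30, -0.39, -0.40, -0.30, -1.05 and -0.63 in that order without the last, and at 24 hr -0.49 became -0.44, -0.58, -0.57, -0.43 and, with a pseudocount of 100, -0.34. Pathway genes higher at 1.5 hr went from 7 to 3 with the median scaling and at 6 hr from 0 to 3, and lower ones from 1 to 3 at 1.5 hr and from 7 to 2 at 6 hr. With no filter on low values, the 43 list genes above 0 untreated were counted in place of 23. Lower ones were then 5, 16 and 8 (11.6%, 37.2% and 18.6%) at the 3 times and higher ones 7 (16.3%) at 24 hr. Those lower ones include genes near 0, such as Irs4, which was listed at 0 in all treated libraries. The share of all coding transcripts without the filter was not counted. The cause of these shifts was not tested. Leaving out the single columns, which set the spread, 7 of 24 alternative shares and 40 of 168 alternative log2 ratios of single genes lay within the larger distance of a column from the mean, and no ratio past 2-fold turned its direction. A fold enrichment of at least 40 together with an FDR of at most 1% left 2 genes with a peak, without Igfbp7.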
